A study of Gallus gallus with 6 samples.

Results

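The genes described here encode the folding, quality control and stress signalling machinery of the endoplasmic reticulum (ER). They were found in the count table by name: of 43 genes listed, 39 were found among 24356 rows, and DNAJB11, DDIT3, SYVN1 and TRIB3 were not among the gene names of the table and were not analysed here. RNA was sequenced from chick head ectoderm in 6 samples. In 3 Sox8OE samples the cells carried pCES-Sox8-mCherry together with pTK-Lmx1aE1-EGFP, a reporter driven by an enhancer active in the otic placode. In 3 Control samples they carried pCES-mCherry and pCES-EGFP, both constitutive. In both groups the plasmids were introduced into head fold stage embryos by electroporation, the embryos were grown at 38 °C for 16 to 24 h, the endogenous otic placode was taken away, and cells positive for mCherry and EGFP were sorted. Only Sox8OE cells were thus selected for enhancer activity, so an effect of Sox8 and an effect of this selection cannot be told apart. In sorted populations, fewer cells of a type and less RNA per cell cannot be told apart either.

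Proteins destined for secretion, membranes or the extracellular matrix enter the ER through the translocon, where chaperones and thiol oxidoreductases fold them and ER-associated degradation removes those that fail. When unfolded proteins accumulate, the sensors ERN1 (also called IRE1), EIF2AK3 (PERK) and ATF6 start the unfolded protein response. In mammalian cells ERN1 splices XBP1 mRNA, EIF2AK3 favours translation of ATF4, and the resulting factors raise the genes of the folding machinery. Tissues that secrete much protein carry high levels of these genes.

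Total counts ranged from 26326573 to 46586658 per sample, and all 39 genes had at least 13 counts in every sample. SOX8 (ENSGALG00000005263), carried by the construct, had normalised counts of 854, 1685 and 968 in Control and 8554, 9889.5 and 9138 in Sox8OE (replicates 1, 2 and 3 in that order, as in all value lists below), higher in each Sox8OE sample as labelled. A normalised count is the count divided by the DESeq2 size factor of its sample; it can be compared between samples but not between genes, which differ in length. Sox8OE replicate 1 stood apart from the other Sox8OE samples. Across 14862 genes its log2 CPM (counts scaled to a common library total) correlated at Pearson r of 0.932 to 0.948 with the Control samples, but at 0.872 and 0.901 with Sox8OE replicates 2 and 3, which correlated with each other at 0.942. Ribosomal protein genes took 11.34% and 8.70% of the counts in Sox8OE replicates 2 and 3, 5.55% in Sox8OE replicate 1 and 5.27% to 7.23% in Control. Mitochondrially encoded genes took 10.35% and 7.55% in Sox8OE replicates 2 and 3, 7.20% in Sox8OE replicate 1 and 5.68% to 6.95% in Control. Values without Sox8OE replicate 1 are given beside the results that it decides. Each group had 3 samples, and the labels name no batch.

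With all samples, group as the only term and default size factors, no ER gene passed the test between the groups. With DESeq2, 0 of 39 genes reached an adjusted p under 0.05 in either direction. Of the 16032 genes tested 5.24% did, 3.94% higher and 1.3% lower in Sox8OE. At such shares few of 39 genes would be called, so this count does not set the ER genes apart. None passed the second threshold used by the study, an absolute log2 fold change over 1.5, which together with the first was met by 4.28% of all genes, 3.32% higher and 0.961% lower. At an unadjusted p under 0.05 there were 3 genes higher and 1 lower with DESeq2 (10.3% of the genes, against 21.8% of all genes tested), 3 higher and 0 lower with edgeR (7.69%, against 16.4%), and 3 higher and 3 lower with limma voom (15.4%, against 19%). With the replicate number as a block in DESeq2, described below, they were 5 higher and 17 lower (56.4%, against 31.7% of all genes). Without the block, neither edgeR nor limma voom gave any of them an adjusted p under 0.05, which they gave to 0.276% and 0.222% of the 14862 genes they tested. The log2 fold changes of Sox8OE over Control ran from -1.14 to 1.12, with 27 below 0 and 12 above, where 53% of all genes lay above 0. Their median was -0.45, against 0.08 over all genes tested. It was -0.95, against 0.10, without Sox8OE replicate 1, and -0.19, against 0.03, without Sox8OE replicate 2. Groups did not overlap at 3 genes, EDEM1, EDEM3 and TXNDC5, each with every Sox8OE sample above every Control sample, an order seen at 10.1% of all genes. At 0 ER genes did every Sox8OE sample lie below every Control sample, against 9.09% of all genes.

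Most ER genes varied more among the Sox8OE samples than among the Control samples, though their median spread was below that of all genes in both groups. The SD of the log2 normalised counts had a median over the 39 genes of 0.23 in Control and 0.63 in Sox8OE, and was larger in Sox8OE at 32 genes (82.1%, against 71.1% of all genes tested, whose medians were 0.39 and 0.72). At 24 genes Sox8OE replicate 1 lay within the range of the Control samples, at 14 above it and at 1 below it. Over all genes tested, these shares were 50.3%, 24.0% and 25.7%. Sox8OE replicates 2 and 3 both lay below every Control sample, with replicate 1 not, at 25 of the 39 genes, an order found at 21.1% of all genes. They both lay above every Control sample, with replicate 1 not, at 6 genes, against 21.8% of all genes. Replicates 1 and 2 lay below, with replicate 3 not, at 1 ER gene (CREB3L1) and above at 0, against 2.7% and 2.01% of all genes. For replicates 1 and 3, with replicate 2 not, both counts were 0, against 1.81% and 2.23%. The shares of all genes were not matched for count level. Lower medians in Sox8OE replicates 2 and 3 were not particular to ER genes. As log2 ratios to the Control mean, they were -1.08 and -0.71 over the 39 genes. Over 18 heat shock genes of the cytosol and mitochondria, described below, they were -0.61 and -0.45, and over all genes tested 0.02 and 0.05.

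**Figure D1:**
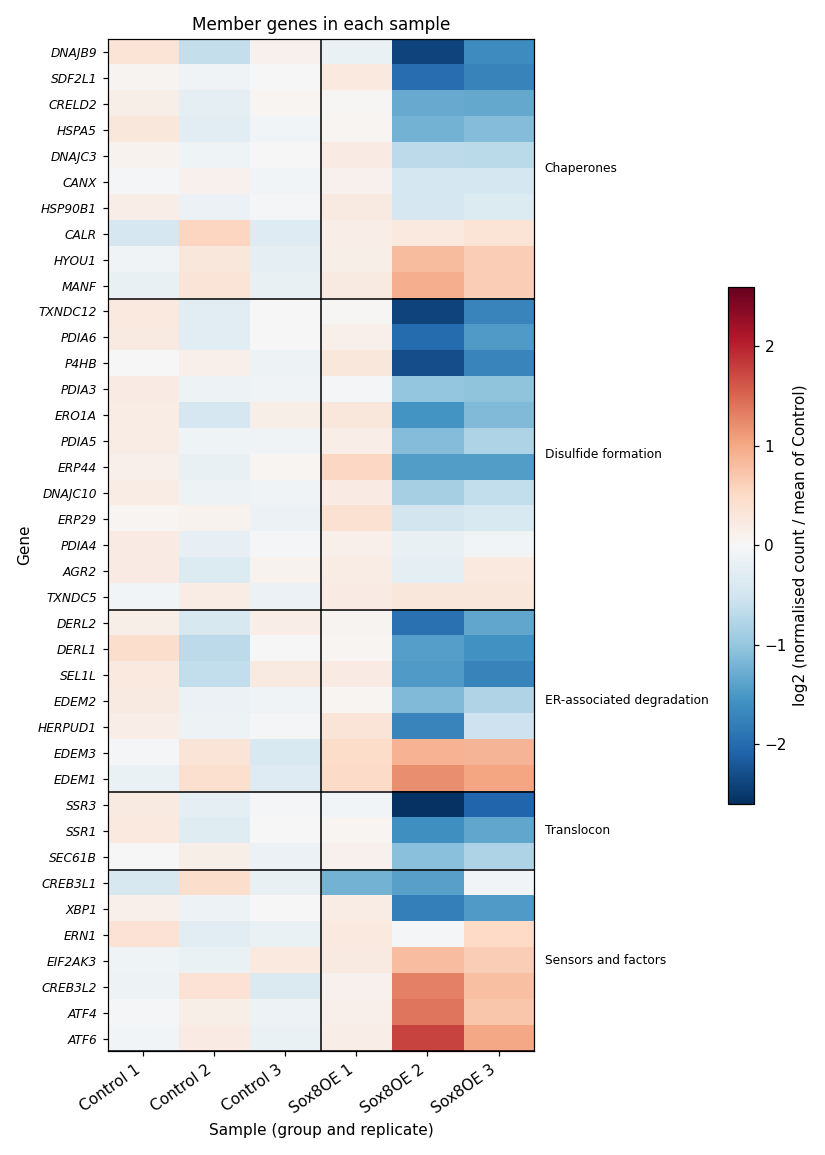
Each row is 1 of the 39 ER genes, sorted within its role by fold change, and each column is 1 sample; colour gives the log2 of the normalised count over the mean of the 3 Control samples. Sox8OE replicate 1 is close to the Control samples at most genes, while Sox8OE replicates 2 and 3 are lower at most genes for folding, degradation and translocation. Sox8OE replicates 2 and 3 are both above every Control sample at ATF6, ATF4, CREB3L2, EIF2AK3, EDEM1, EDEM3, MANF, HYOU1 and TXNDC5. Replicate 1 is above too at 3 of these (an order seen at 10.1% of all genes) and not at 6 (21.8% of all genes).

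Without Sox8OE replicate 1, DESeq2 gave 30 of the 39 genes an adjusted p under 0.05, 23 of them lower and 7 higher in Sox8OE. The same fit called 39.4% of all genes, 21.6% lower and 17.8% higher. Past both thresholds were 10 ER genes, all lower, against 8.93% of all genes lower and 9.31% higher. Sox8OE replicate 1 was singled out from these same counts, as the Sox8OE sample nearest to Control. Leaving it out therefore tends to widen the difference between the groups. The p-values of this fit, here and below, describe that choice of samples and are no separate support. The fit rests on Sox8OE replicates 2 and 3 alone. These samples had the smallest totals and the largest shares of ribosomal protein and mitochondrially encoded genes. The part of these features in the result was not tested. Without any of the other 5 samples in turn, 0 genes passed. No label pairs the samples, but those with the same replicate number deviated together, though weakly. The replicate number was therefore also fitted as a block, a choice made from these same data. The p-values of the block fit, here and below, are thus no separate support either. That fit called 10 genes lower and 1 higher at an adjusted p under 0.05, against 10.3% and 8.25% of all genes (18.6% in either direction). The genes lower were SSR3, DNAJB9, TXNDC12, PDIA6, P4HB, SSR1, SDF2L1, DERL2, DERL1 and XBP1, and the gene higher was EDEM1. Of these SSR3 alone also passed the fold change threshold, which with the first was met downward by 3.32% and upward by 4.83% of all genes.

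By role, the median log2 fold change was -0.77 for the 3 translocon genes, -0.54 for degradation, -0.46 for disulfide formation, -0.29 for chaperones and 0.58 for sensors and factors. These medians were -1.49, -1.02, -1.0, -0.59 and 0.71 without Sox8OE replicate 1. The translocon genes are given first. SSR1 and SSR3 encode subunits of the translocon-associated protein complex, which assists the entry of many signal peptides, and SEC61B encodes a subunit of the channel. SSR3 (ENSGALG00000028683) had 23636, 17104 and 19899.9 normalised counts in Control and 19258, 3407 and 4825 in Sox8OE. Its Sox8OE replicate 1 lay inside the Control range and the other Sox8OE samples far below it. SSR3 had a log2 fold change of -1.14 ± 0.59 (SE, DESeq2 adjusted p 0.24). Without Sox8OE replicate 1 it was -2.31 (DESeq2 adjusted p 3.2e-19), the largest fall of the 39 genes in that fit, and with the replicate block -1.57 (DESeq2 adjusted p 0.0013).

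In Control SSR1 (ENSGALG00000012798) had normalised counts of 33666, 22626 and 28207, and in Sox8OE of 29227, 9277 and 11023. Sox8OE replicates 2 and 3 were again the lowest samples, and the log2 fold change over all samples was -0.77 ± 0.48 (SE, DESeq2 adjusted p 0.32). It was -1.49 (DESeq2 adjusted p 4.4e-09) without Sox8OE replicate 1 and -0.95 (DESeq2 adjusted p 0.027) with the block. SEC61B (ENSGALG00000013569) had 17588, 19629.5 and 15904 normalised counts in Control and 19127, 8385 and 10134 in Sox8OE. Here too Sox8OE replicates 2 and 3 were the lowest of the 6 samples. Its log2 fold change of -0.50 ± 0.39 (SE) did not pass with all samples (DESeq2 adjusted p 0.44) or with the block (DESeq2 adjusted p 0.21), whereas without Sox8OE replicate 1 it was -0.95 (DESeq2 adjusted p 4.2e-05). Together the 3 genes took 0.1624% to 0.1915% of all counts in Control and 0.1813%, 0.0669% and 0.0918% in the Sox8OE samples.

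Chaperones went both ways. HSPA5, better known as BiP, is the ER member of the Hsp70 family, and it binds nascent chains and holds the stress sensors inactive. In Control HSPA5 (ENSGALG00000001000) had normalised counts of 42680.3, 29114 and 33150.2, and in Sox8OE of 36409, 14920.5 and 16077. The Sox8OE replicates 2 and 3 held less than the others, and the log2 fold change was -0.64 ± 0.43 (SE, DESeq2 adjusted p 0.36). It was -1.19 without Sox8OE replicate 1 (DESeq2 adjusted p 1.9e-06), but missed the threshold with the block (DESeq2 adjusted p 0.067). HSP90B1, the ER paralogue of Hsp90 that folds integrins and Toll-like receptors, took the most counts of the 39 genes in every sample but Sox8OE replicate 2, where ATF4 did. HSP90B1 (ENSGALG00000033789) had 56939, 45409 and 48709 normalised counts in Control and 59072, 37026 and 39205 in Sox8OE. Sox8OE replicate 1 was the highest sample and Sox8OE replicates 2 and 3 the lowest, and the log2 fold change was -0.16 ± 0.33 (SE, DESeq2 adjusted p 0.79). That value turned to 0.02 when total counts served as size factors, and HSP90B1 did not pass without Sox8OE replicate 1 either (-0.41, DESeq2 adjusted p 0.092).

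The J-domain proteins DNAJB9 and DNAJC3 hand clients to HSPA5 and stimulate its ATPase. In Control DNAJB9 (ENSGALG00000009492) had normalised counts of 4861, 2489.9 and 4093, and in Sox8OE of 3393, 721 and 1224. Its smallest values were again those of Sox8OE replicates 2 and 3, and among the chaperones it had the smallest p. DNAJB9 had a log2 fold change of -1.10 ± 0.56 (SE, DESeq2 adjusted p 0.23), and -1.99 without Sox8OE replicate 1 (DESeq2 adjusted p 1.8e-08). DNAJB9 was called lower with the block (-1.35, DESeq2 adjusted p 0.0022). DNAJC3 had 6024 ± 449 in Control and 4790.0 ± 1861 in Sox8OE (SD, n = 3 each), and without Sox8OE replicate 1 a log2 fold change of -0.71 (DESeq2 adjusted p 0.0019).

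SDF2L1 is a stress-induced partner of ER J-domain proteins, and CRELD2 a stress-induced ER protein with EGF-like repeats. SDF2L1 (ENSGALG00000031982) had 3732, 3305 and 3571 normalised counts in Control and 4224, 900.0 and 1065 in Sox8OE. Sox8OE replicate 1 was the highest of all samples at SDF2L1, while the other Sox8OE samples were the lowest. The log2 fold change of -0.78 ± 0.57 (SE, DESeq2 adjusted p 0.4) became -1.86 without Sox8OE replicate 1 (DESeq2 adjusted p 2.0e-15) and -1.17 with the block (DESeq2 adjusted p 0.028). In Control CRELD2 (ENSGALG00000008551) had normalised counts of 4540.4, 3508 and 4255, and in Sox8OE of 4195, 1643 and 1635. CRELD2 also had its smallest values in Sox8OE replicates 2 and 3, a log2 fold change of -0.72 ± 0.45 (SE, DESeq2 adjusted p 0.32) and, without Sox8OE replicate 1, -1.34 (DESeq2 adjusted p 3.3e-08). With the block its adjusted p was 0.056 (DESeq2).

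HYOU1 and MANF lay on the other side. HYOU1 releases nucleotide from HSPA5, and MANF is an HSPA5 cofactor that is also secreted. HYOU1 (ENSGALG00000007659) had 4434, 5735 and 3928 normalised counts in Control and 5191, 8316 and 7289 in Sox8OE. Sox8OE replicates 2 and 3 were the highest samples, and Sox8OE replicate 1 lay below Control replicate 2. HYOU1 had a log2 fold change of 0.56 ± 0.34 (SE, DESeq2 adjusted p 0.3), and 0.72 without Sox8OE replicate 1 (DESeq2 adjusted p 0.0079). In Control MANF (ENSGALG00000002362) had normalised counts of 4180.1, 6037 and 4176, and in Sox8OE of 5681, 9295 and 7423. The order of the samples was that of HYOU1. MANF had a log2 fold change of 0.64 ± 0.34 (SE, DESeq2 adjusted p 0.25), and 0.79 without Sox8OE replicate 1 (DESeq2 adjusted p 0.0054). Neither passed with the block, with DESeq2 adjusted p of 0.19 and 0.11.

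The lectin chaperones CANX and CALR hold glycoproteins that carry a trimmed sugar. CANX had 16373 ± 1079 in Control and 13827 ± 3390.0 in Sox8OE (SD, n = 3 each), and its log2 fold change was -0.24 ± 0.31 (SE, DESeq2 adjusted p 0.65). Without Sox8OE replicate 1 it was -0.48 (DESeq2 adjusted p 0.035). CALR had 1169 ± 475 in Control and 1396 ± 84.1 in Sox8OE (SD, n = 3 each), with overlapping groups, a log2 fold change of 0.26 ± 0.38 (SE, DESeq2 adjusted p 0.7), and 0.28 without Sox8OE replicate 1 (DESeq2 adjusted p 0.53). Among the 10 chaperones and co-chaperones found, 7 thus had Sox8OE replicates 2 and 3 below all Control samples with replicate 1 not. At 2 of them both lay above, with replicate 1 not. Over all genes these orders were found at 21.1% and 21.8%.

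**Figure D2:**
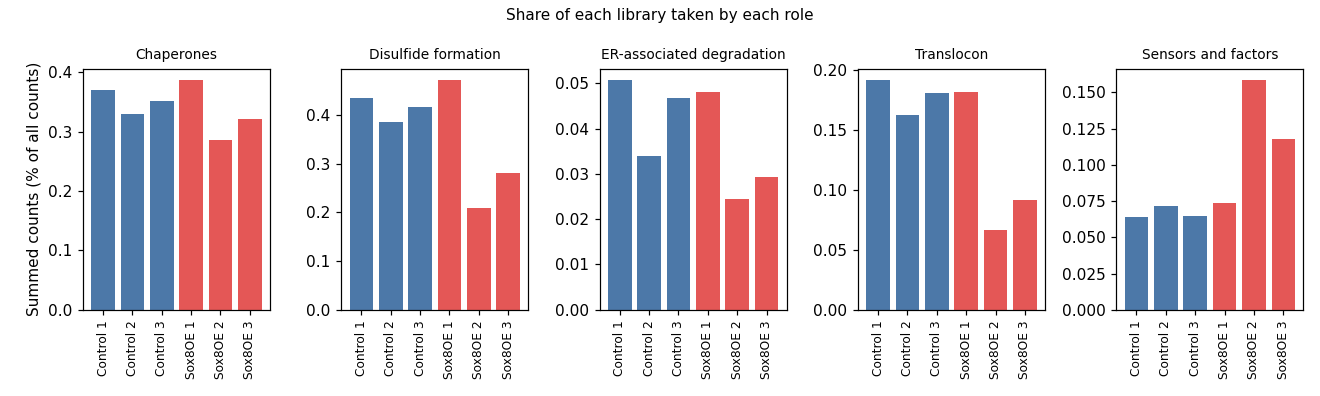
Bars give the summed counts of the genes of each role as a percent of all counts in each sample, with Control in blue and Sox8OE in red; each panel has its own axis from 0. Translocon genes are at 0.0669% and 0.0918% and sensors and factors at 0.1585% and 0.1178% in Sox8OE replicates 2 and 3, while Sox8OE replicate 1 has 0.1813% and 0.0734%, near the Control samples.

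All 12 genes for disulfide formation were found. P4HB is protein disulfide isomerase itself and also a subunit of collagen prolyl hydroxylase, and PDIA6 is an isomerase that works beside HSPA5. P4HB (ENSGALG00000038290) had 34409, 37851 and 31718 normalised counts in Control and 42475, 7030.0 and 10553 in Sox8OE. Sox8OE replicate 1 was the highest of the 6 samples, and the other Sox8OE samples stood below all Control samples. P4HB had a log2 fold change of -0.79 ± 0.60 (SE, DESeq2 adjusted p 0.41), -1.99 without Sox8OE replicate 1 (DESeq2 adjusted p 1.4e-15) and -1.26 with the block (DESeq2 adjusted p 0.024). In Control PDIA6 (ENSGALG00000016447) had normalised counts of 53623, 37176 and 45720.3, and in Sox8OE of 49664, 11338 and 16488. Its Sox8OE replicate 1 lay inside the Control range, and the log2 fold change was -0.82 ± 0.53 (SE, DESeq2 adjusted p 0.35). It was -1.72 without Sox8OE replicate 1 (DESeq2 adjusted p 1.3e-10) and -1.11 with the block (DESeq2 adjusted p 0.016).

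TXNDC12, a small thioredoxin-like ER protein, had the smallest p of this role. TXNDC12 (ENSGALG00000010569) had 8386, 5808 and 6952 normalised counts in Control and 7173, 1337 and 2157 in Sox8OE. Sox8OE replicate 2 was the lowest sample and Sox8OE replicate 1 was inside the Control range. TXNDC12 had a log2 fold change of -0.99 ± 0.57 (SE, DESeq2 adjusted p 0.29), -2.03 without Sox8OE replicate 1 (DESeq2 adjusted p 3.2e-12) and -1.35 with the block (DESeq2 adjusted p 0.005). PDIA3 (ERp57), which oxidises glycoproteins held by CANX and CALR, came next by p. In Control PDIA3 (ENSGALG00000008348) had normalised counts of 2744, 2160.3 and 2234, and in Sox8OE of 2306, 1190.2 and 1154. Sox8OE replicates 2 and 3 were the lowest samples. PDIA3 had a log2 fold change of -0.62 ± 0.39 (SE, DESeq2 adjusted p 0.33), and -1.03 without Sox8OE replicate 1 (DESeq2 adjusted p 5.9e-05).

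The oxidase ERO1A passes electrons from the isomerases to oxygen, and ERP44 retains ERO1A in the early secretory pathway. ERP44 (ENSGALG00000013452) had 7008, 5533 and 6545 normalised counts in Control and 9274, 2339 and 2329.7 in Sox8OE. The distance between Sox8OE replicate 1, the highest sample, and the other Sox8OE samples was large. ERP44 had a log2 fold change of -0.45 ± 0.55 (SE, DESeq2 adjusted p 0.63), and -1.46 without Sox8OE replicate 1 (DESeq2 adjusted p 2.3e-10). In Control ERO1A (ENSGALG00000012404) had normalised counts of 2302, 1496 and 2243, and in Sox8OE of 2482, 687 and 905. ERO1A too was highest in Sox8OE replicate 1 and lowest in the other Sox8OE samples, with a log2 fold change of -0.57 ± 0.51 (SE, DESeq2 adjusted p 0.5) and -1.35 without Sox8OE replicate 1 (DESeq2 adjusted p 1.3e-05). The isomerase PDIA5 and the reductase DNAJC10 had -0.97 and -0.76 in that fit (DESeq2 adjusted p 5.2e-05 and 0.0027), and -0.47 and -0.35 with all samples (DESeq2 adjusted p 0.48 and 0.59).

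The other 4 genes of this role passed in none of these fits. PDIA4, an isomerase with several thioredoxin domains, had 25651 ± 3785 in Control and 25013 ± 2921 in Sox8OE (SD, n = 3 each), and its log2 fold change was -0.04 ± 0.29 (SE, DESeq2 adjusted p 0.95), and -0.14 without Sox8OE replicate 1 (DESeq2 adjusted p 0.64). ERP29, a thioredoxin-fold protein without a redox active site, had 5090.3 ± 434 in Control and 4753 ± 1721 in Sox8OE (SD, n = 3 each) and a log2 fold change of -0.10 ± 0.36 (SE, DESeq2 adjusted p 0.89), and -0.45 without Sox8OE replicate 1 (DESeq2 adjusted p 0.07). With total counts as size factors PDIA4 and ERP29 had 0.17 and 0.07, so their signs depended on the scaling. TXNDC5, a thioredoxin-domain isomerase, had 5318 ± 682 in Control and 6402 ± 178 in Sox8OE (SD, n = 3 each), with every Sox8OE sample above every Control sample but a log2 fold change of only 0.27 ± 0.28 (SE, DESeq2 adjusted p 0.57), and 0.28 without Sox8OE replicate 1 (DESeq2 adjusted p 0.31). AGR2 (ENSGALG00000010825) had 366, 247 and 335 normalised counts in Control and 363, 270.3 and 375 in Sox8OE. AGR2, which in mammals folds mucins, overlapped between the groups, with a log2 fold change of 0.09 ± 0.37 (SE, DESeq2 adjusted p 0.9), and 0.02 without Sox8OE replicate 1 (DESeq2 adjusted p 0.97). Its paralogue AGR3 is described with the other oxidoreductases below.

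**Figure D3:**
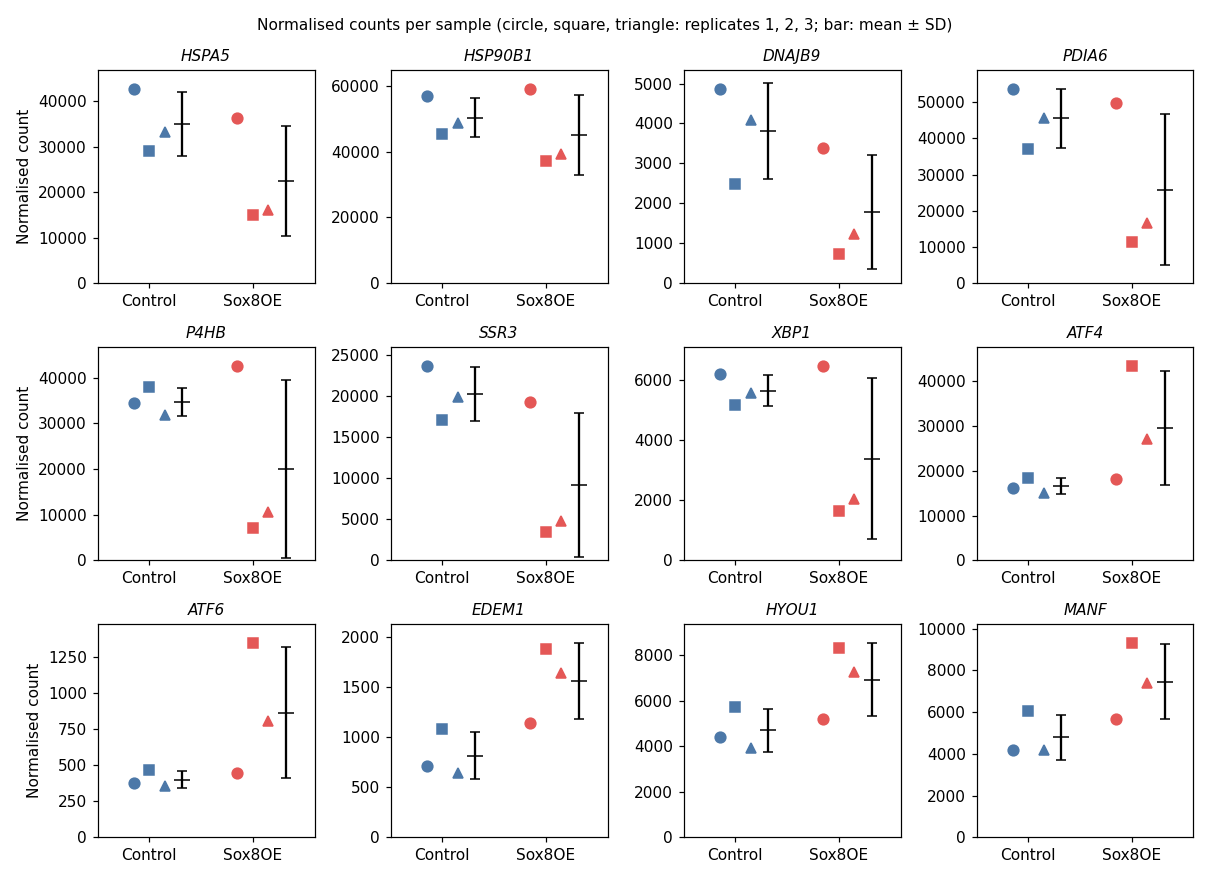
Normalised counts of 12 ER genes, picked after their values were seen to show both patterns, in each sample (circle, square and triangle for replicates 1, 2 and 3; blue Control, red Sox8OE), with the mean and SD of 3 samples as bars and axes from 0. At HSPA5, HSP90B1, DNAJB9, PDIA6, P4HB, SSR3 and XBP1 the Sox8OE square and triangle lie below every Control sample, at ATF4, ATF6, EDEM1, HYOU1 and MANF above.

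Genes of ER-associated degradation also went both ways, with 5 log2 fold changes below 0 and 2 above. At the 2 higher genes, EDEM1 and EDEM3, Sox8OE replicate 1 lay above every Control sample too, unlike at HYOU1 and MANF. DERL1 and DERL2 form part of the exit channel for misfolded proteins, SEL1L scaffolds the ubiquitin ligase, and HERPUD1 helps assemble that complex. In Control DERL1 (ENSGALG00000033950) had normalised counts of 8149, 3712 and 5969, and in Sox8OE of 6191, 2208 and 1984. Sox8OE replicates 2 and 3 were the lowest samples, although Control replicate 2 was also below the other Control samples. DERL1 had a log2 fold change of -0.78 ± 0.52 (SE, DESeq2 adjusted p 0.35), and -1.52 without Sox8OE replicate 1 (DESeq2 adjusted p 6.7e-06). DERL2 (ENSGALG00000041844) had 2477, 1672 and 2509 normalised counts in Control and 2319.6, 580.2 and 869 in Sox8OE. DERL2 was lowest in the same samples, with a log2 fold change of -0.82 ± 0.52 (SE, DESeq2 adjusted p 0.33) and -1.63 without Sox8OE replicate 1 (DESeq2 adjusted p 2.5e-07). Both were called lower with the block, at -0.91 (DESeq2 adjusted p 0.036) and -1.06 (DESeq2 adjusted p 0.03).

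In Control SEL1L (ENSGALG00000010581) had normalised counts of 3079, 1652 and 3034, and in Sox8OE of 3016, 932 and 782. SEL1L also had its smallest values in Sox8OE replicates 2 and 3, with a log2 fold change of -0.71 ± 0.55 (SE, DESeq2 adjusted p 0.43) and -1.61 without Sox8OE replicate 1 (DESeq2 adjusted p 1.5e-06). HERPUD1 (ENSGALG00000001220) had 1436, 1164 and 1228 normalised counts in Control and 1599, 388 and 885 in Sox8OE. Sox8OE replicate 1 was its highest sample and Sox8OE replicate 2 its lowest. HERPUD1 had a log2 fold change of -0.41 ± 0.50 (SE, DESeq2 adjusted p 0.63) and -1.02 without Sox8OE replicate 1 (DESeq2 adjusted p 0.011).

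EDEM1, EDEM2 and EDEM3 belong to a family of mannosidase-like proteins that mark glycoproteins for degradation, and its genes differed among themselves. In Control EDEM1 (ENSGALG00000008320) had normalised counts of 717, 1081 and 642, and in Sox8OE of 1146, 1887 and 1647. Every Sox8OE sample lay above every Control sample, and EDEM1 had the smallest p of the 39 genes. Its log2 fold change was 0.94 ± 0.37 (SE, DESeq2 adjusted p 0.12), 1.11 without Sox8OE replicate 1 (DESeq2 adjusted p 7.5e-04) and 0.94 with the block (DESeq2 adjusted p 0.029). With total counts as size factors it was 1.17 with a DESeq2 adjusted p of 0.044. EDEM3 (ENSGALG00000004806) had 118, 151 and 91.4 normalised counts in Control and 166, 224 and 220.4 in Sox8OE. The groups did not overlap at EDEM3 either, but its log2 fold change of 0.76 ± 0.42 (SE, DESeq2 adjusted p 0.27) did not pass in any fit, nor did the 0.88 without Sox8OE replicate 1 (DESeq2 adjusted p 0.11). In Control EDEM2 (ENSGALG00000003128) had normalised counts of 3864, 2955 and 3089, and in Sox8OE of 3441, 1480.3 and 1910.4. At EDEM2 the order was the opposite, with Sox8OE replicates 2 and 3 the lowest samples, a log2 fold change of -0.54 ± 0.40 (SE, DESeq2 adjusted p 0.41) and -0.97 without Sox8OE replicate 1 (DESeq2 adjusted p 3.1e-04). The difference between the EDEM genes was not tested.

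Among the sensors and factors, XBP1 was low where ATF4 and ATF6 were high. XBP1 encodes the factor whose mRNA is spliced by ERN1; counts per gene do not separate the spliced from the unspliced form. XBP1 (ENSGALG00000005796) had 6179.5, 5155 and 5562 normalised counts in Control and 6443, 1645 and 2040.5 in Sox8OE. Sox8OE replicate 1 was the highest of the 6 samples and the other Sox8OE samples the lowest. XBP1 had a log2 fold change of -0.74 ± 0.52 (SE, DESeq2 adjusted p 0.38), -1.62 without Sox8OE replicate 1 (DESeq2 adjusted p 6.1e-12) and -1.02 with the block (DESeq2 adjusted p 0.036).

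ATF6 is a membrane-bound factor that is cut and released under stress. In Control ATF6 (ENSGALG00000032278) had normalised counts of 377, 464 and 354, and in Sox8OE of 446, 1344 and 805. Sox8OE replicates 2 and 3 were the highest samples, and Sox8OE replicate 1 lay below Control replicate 2. ATF6 had a log2 fold change of 1.12 ± 0.46 (SE, DESeq2 adjusted p 0.13), the largest of the 39 genes, and 1.42 without Sox8OE replicate 1 (DESeq2 adjusted p 6.6e-05). ATF4 is the factor of the EIF2AK3 branch, controlled largely at translation, which these counts do not measure. ATF4 (ENSGALG00000012135) had 16229.5, 18443 and 15138 normalised counts in Control and 18069, 43388 and 27221 in Sox8OE. The samples had the same order as at ATF6. Its log2 fold change was 0.83 ± 0.39 (SE, DESeq2 adjusted p 0.19), and 1.08 without Sox8OE replicate 1 (DESeq2 adjusted p 7.8e-05). With the block neither passed, at DESeq2 adjusted p of 0.053 for ATF6 and 0.079 for ATF4.

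The kinases differed less. In Control EIF2AK3 (ENSGALG00000015958) had normalised counts of 522, 499.9 and 669, and in Sox8OE of 659.8, 981 and 878. EIF2AK3 had its highest values in Sox8OE replicates 2 and 3, a log2 fold change of 0.58 ± 0.34 (SE, DESeq2 adjusted p 0.3) and 0.71 without Sox8OE replicate 1 (DESeq2 adjusted p 0.032). ERN1 (ENSGALG00000003476) had 1024, 651 and 703 normalised counts in Control and 950.1, 768 and 1131 in Sox8OE. The groups overlapped at ERN1, with a log2 fold change of 0.26 ± 0.35 (SE, DESeq2 adjusted p 0.67) and 0.25 without Sox8OE replicate 1 (DESeq2 adjusted p 0.57). CREB3L1 and CREB3L2 are ATF6-like membrane-bound factors known in mammals for driving secretion of bone and cartilage matrix. In Control CREB3L2 (ENSGALG00000012877) had normalised counts of 655, 931 and 553, and in Sox8OE of 774, 1758 and 1227. CREB3L2 followed the order of ATF6, with a log2 fold change of 0.81 ± 0.42 (SE, DESeq2 adjusted p 0.24) and 1.05 without Sox8OE replicate 1 (DESeq2 adjusted p 0.0029). CREB3L1 was scarce, at 38.2 ± 12.7 in Control and 22.4 ± 12.3 in Sox8OE (SD, n = 3 each), and did not pass in any fit. Its log2 fold change was -0.77 ± 0.76 (SE, DESeq2 adjusted p 0.55), and -0.60 without Sox8OE replicate 1 (DESeq2 adjusted p 0.64). Of the 7 sensors and factors found, 4 had Sox8OE replicates 2 and 3 above all Control samples with replicate 1 not, and 1 had them below. Over all genes these orders were found at 21.8% and 21.1%.

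**Figure D4:**
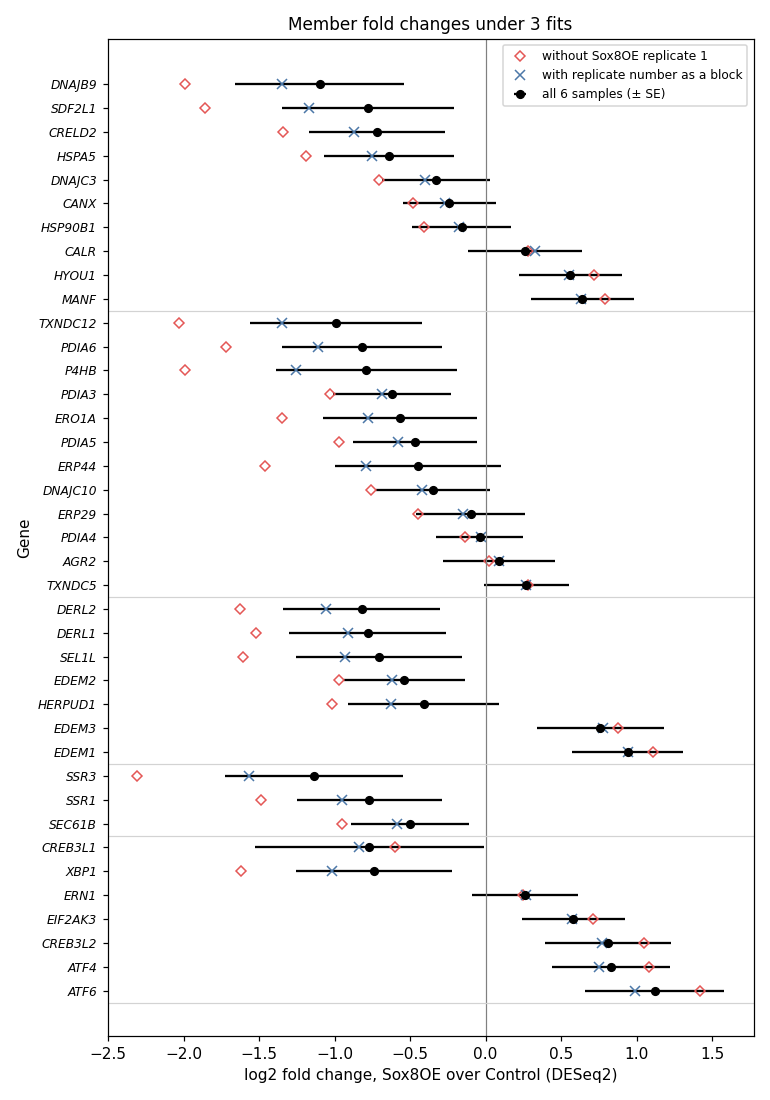
Log2 fold changes of Sox8OE over Control for the 39 genes in 3 DESeq2 fits: all 6 samples with SE (black), without Sox8OE replicate 1 (red diamonds) and with replicate number as a block (blue crosses). Without Sox8OE replicate 1 the values spread further from 0, from -2.31 at SSR3 to 1.42 at ATF6, against -1.14 to 1.12 with all samples.

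As a whole the 39 genes took 1.110%, 0.983% and 1.062% of all counts in Control and 1.161%, 0.744% and 0.842% in Sox8OE. Sox8OE replicate 1 thus had the highest share of the 6 samples and the other Sox8OE samples the lowest. Counted without ribosomal protein and mitochondrially encoded genes, the shares were 1.265%, 1.136% and 1.193% in Control and 1.330%, 0.949% and 1.005% in Sox8OE, in the same order. By role, disulfide formation took 0.3855% to 0.4346% in Control and 0.4716%, 0.2084% and 0.2813% in the Sox8OE samples. Chaperones took 0.3296% to 0.3696% in Control and 0.3866%, 0.2852% and 0.3214% in Sox8OE replicates 1, 2 and 3. Sensors and factors, most of whose counts were ATF4, took 0.0640% to 0.0717% in Control and 0.0734%, 0.1585% and 0.1178% in Sox8OE.

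Other genes of the secretory pathway were examined in lists that share no gene with the 39. The lists were written from general knowledge, but with earlier results of these data known, so their counts are no separate support. Genes of the translocon, signal recognition particle and signal peptidase had 20 members found and a median log2 fold change of -0.57 (-0.80 without Sox8OE replicate 1), with 0 past an adjusted p under 0.05 with DESeq2 or edgeR. The list's sample medians, as log2 ratios to the Control mean, were 0.01, -0.82 and -0.77 in Sox8OE replicates 1, 2 and 3. Its genes with the smallest p were SEC63, a J-domain partner of the channel, at 0.76 ± 0.31 (SE, DESeq2 adjusted p 0.13), and SRP14, a subunit of the signal recognition particle, at -1.07 ± 0.46 (SE, DESeq2 adjusted p 0.15). For SEC63, without Sox8OE replicate 1 it was 0.92 (DESeq2 adjusted p 4.2e-05), and with the block the DESeq2 adjusted p was 0.059. For SRP14, without Sox8OE replicate 1 it was -1.71 (DESeq2 adjusted p 1.8e-11), and with the block the DESeq2 adjusted p was 0.0027. Genes of N-glycosylation and the calnexin cycle had a median of -0.50 over 15 genes found (-0.68 without Sox8OE replicate 1), again with 0 past the threshold with DESeq2 or edgeR, and sample medians of 0.09, -0.76 and -0.59 in Sox8OE. UGGT1, which adds glucose back to misfolded glycoproteins, had a log2 fold change of -0.88 ± 0.47 (SE, DESeq2 adjusted p 0.25); without Sox8OE replicate 1 it was -1.44 (DESeq2 adjusted p 3.3e-05), and with the block the DESeq2 adjusted p was 0.023. MOGS, the trimming glucosidase, had 1 count in each Control sample and 0, 22 and 11 counts in Sox8OE, and did not pass (DESeq2 adjusted p 0.24). Other genes of ER-associated degradation had a median of -0.25 over 14 genes (-0.45 without Sox8OE replicate 1), with 0 past the threshold with either tool, led by NGLY1, the cytosolic deglycosylating enzyme, at -0.99 ± 0.47 (SE, DESeq2 adjusted p 0.2), and AUP1, a lipid droplet and degradation factor, at 0.86 ± 0.46 (SE, DESeq2 adjusted p 0.25). For NGLY1, without Sox8OE replicate 1 it was -1.67 (DESeq2 adjusted p 6.7e-10), and with the block the DESeq2 adjusted p was 0.012. For AUP1, without Sox8OE replicate 1 it was 1.03 (DESeq2 adjusted p 0.03), and with the block the DESeq2 adjusted p was 0.075.

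Among 15 other thiol oxidoreductases of the ER, 2 rose and 0 fell, where 3.94% of all genes rose and 1.3% fell. This list too was written with earlier results of these data known, so its count is no separate support. The median log2 fold change was -0.18, and -0.34 without Sox8OE replicate 1. AGR3 (ENSGALG00000019651) had 16.6, 23.5 and 21.2 normalised counts in Control and 703, 270.3 and 388 in Sox8OE. AGR3, the paralogue of AGR2, rose in all 3 Sox8OE samples, Sox8OE replicate 1 being the highest, with a log2 fold change of 4.47 ± 0.51 (SE), a DESeq2 adjusted p of 4.3e-15 and an edgeR adjusted p of 0.017, but a limma voom adjusted p of 0.088. The difference between AGR3 and AGR2, which had a log2 fold change of 0.09, was not tested. In Control PDIA2 (ENSGALG00000040070) had normalised counts of 8.84, 27.5 and 24, and in Sox8OE of 27.6, 167 and 138. PDIA2, an isomerase known from the pancreas in mammals, rose by 2.45 ± 0.79 (SE) on the log2 scale with a DESeq2 adjusted p of 0.042, but its Sox8OE replicate 1 barely exceeded Control replicate 2, and edgeR did not call it (edgeR adjusted p 0.24).

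Of 13 prolyl and lysyl hydroxylases and collagen chaperones, 1 rose and 0 fell (3.94% and 1.3% of all genes), with a median log2 fold change of 0.27, and of -0.01 without Sox8OE replicate 1. PLOD2 (ENSGALG00000006783) had 864, 803 and 744 normalised counts in Control and 1441, 1389 and 1988 in Sox8OE. PLOD2, a lysyl hydroxylase of collagen, rose, with 804 ± 60.2 in Control and 1606 ± 332 in Sox8OE (SD, n = 3 each) and no overlap of the groups (DESeq2 adjusted p 0.035, edgeR adjusted p 0.19). FKBP9, a prolyl isomerase of the ER, had all Sox8OE samples above Control and a log2 fold change of 0.80 ± 0.28 (SE, DESeq2 adjusted p 0.07); without Sox8OE replicate 1 it was 0.82 (DESeq2 adjusted p 9.4e-04), and with the block the DESeq2 adjusted p was 0.036. The targets of ATF4 had a median of 0.17 over 13 genes found (-0.03 without Sox8OE replicate 1). Of the 11 tested, 1 fell and 0 rose, against 1.3% and 3.94% of all genes. In Control ASNS (ENSGALG00000009748) had normalised counts of 4375, 4062 and 4437, and in Sox8OE of 2778, 1838 and 1529. ASNS, asparagine synthetase, fell, every Sox8OE sample lying below every Control sample, and its log2 fold change was -1.07 ± 0.34 (SE), with adjusted p of 0.039 in DESeq2 and 0.2 in edgeR. AARS1, an alanyl-tRNA synthetase, had 0.89 ± 0.40 (SE, DESeq2 adjusted p 0.17); without Sox8OE replicate 1 it was 1.1 (DESeq2 adjusted p 8.2e-04), and with the block the DESeq2 adjusted p was 0.02. No edgeR adjusted p was under 0.05 in either list.

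The calls in these lists also depended on Sox8OE replicate 1. Without it, DESeq2 gave an adjusted p under 0.05 to 2 higher and 11 lower genes of translocation, 0 and 7 of N-glycosylation, 2 and 5 of degradation, 5 and 5 of the oxidoreductases, 2 and 3 of the hydroxylases and collagen chaperones, and 3 and 2 of the ATF4 targets. With the replicate block these numbers were 0 and 6, 0 and 5, 0 and 2, 5 and 1, 3 and 1, and 1 and 2. The shares of all genes called in the same fits were 17.8% higher and 21.6% lower, and 8.25% higher and 10.3% lower. Without Sox8OE replicate 1 the DESeq2 adjusted p was 7.4e-14 for AGR3, 1.4e-04 for PDIA2, 3.3e-04 for PLOD2 and 4.0e-09 for ASNS, and with the block 2.6e-14, 0.014, 0.023 and 0.006. Leaving out any other sample took the calls of PDIA2, PLOD2 and ASNS away, with DESeq2 adjusted p of 0.066 to 0.41, 0.13 to 0.41 and 0.12 to 0.32, whereas that of AGR3 was 3.0e-09 at most. With TMM factors PDIA2 had a DESeq2 adjusted p of 0.051, and limma voom called none of the 4 genes (adjusted p 0.088 to 0.29).

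Marker lists of other cell types were compared as summed normalised counts, because the sort could hold several cell types. Head mesenchyme markers (6 genes, FOXC1 with at most 2 counts in any sample) summed to 1807 to 2506 in Control and 532 to 587 in Sox8OE, and TWIST1, ALX1 and PDGFRA fell. The Control sums were mostly ALX1 and PDGFRA. PRRX1 and FOXC2 went the other way in Sox8OE replicates 2 and 3, where both lay above every Control sample. Surface ectoderm markers (8 genes found) summed to 24018 to 27607 in Control and 42531, 33383 and 30016 in Sox8OE replicates 1, 2 and 3, and KRT18 rose. EPCAM, a defining marker of epithelium, had 16766, 15872 and 16317 normalised counts in Control and 27325, 10127 and 12539 in Sox8OE, and so was lowest in the same samples as most ER genes. Most other markers of this list went the other way. KRT18, DLX5, TFAP2A, GATA2 and CDH1 lay above every Control sample in Sox8OE replicates 2 and 3. TP63 lay below every Control sample in both, and GATA3 in Sox8OE replicate 2 alone. Endothelial markers (6 genes) summed to 491 to 1293 in Control and 513, 2528 and 2240 in Sox8OE. In Sox8OE replicates 2 and 3 PECAM1 made up most of that sum (2346.3 and 2073.8). CDH5 had 0 and 38.7 normalised counts there, and TAL1 had 0 and 10.75. Blood markers (6 genes found, HBE1 at 0 in every sample), whose sum was mostly ALAS2, summed to 2642 to 3777 in Control and 2870, 1557 and 2074 in Sox8OE. Notochord and floor plate markers (5 genes) summed to 608 to 1130 in Control and 230 to 596 in Sox8OE, and SHH fell. CHRD and FOXA2 were below every Control sample in each Sox8OE sample, whereas TBXT was above every Control sample in Sox8OE replicates 2 and 3. Endoderm and yolk sac markers (5 genes, CDX2 at 0 in every sample), whose sum was mostly APOA1, summed to 1555 to 2175 in Control and 409 to 728 in Sox8OE. APOA1 and FOXA1 fell. Neural markers (6 genes), whose sum was mostly CDH2, summed to 6552 to 7715 in Control and 5679 to 6113 in Sox8OE. CDH2 and ZIC1 were below every Control sample in each Sox8OE sample. SOX21 and SOX1 were above every Control sample in Sox8OE replicates 2 and 3. In Sox8OE replicates 2 and 3 the endothelial sum, mostly PECAM1, was higher than in the other samples. The blood sum, mostly ALAS2, and EPCAM were lower there. CDH5, KDR, TAL1 and TIE1 did not exceed the Control range in these samples, and ERG did in Sox8OE replicate 2 alone. HBZ and HBA1 were highest in Sox8OE replicate 2. The part of these cell types in the order of the ER genes was not tested.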

How the data were processed

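Paired reads of 75 bases were aligned by the authors to GalGal6 with STAR within nf-core's RNA-seq pipeline at its defaults; the submitters' processing notes name Trim Galore and featureCounts. The authors deposited raw read counts per Ensembl gene, 1 column for each sample, without normalisation. Annotation release, strand setting and handling of shared reads are not given in the sources used here, so counts of overlapping genes and near-identical copies are uncertain. Libraries were amplified from few cells without molecular identifiers, so counts include copies of the same molecule. The numbers of sorted cells given by the labels and by the study's methods differ. No 2 replicates agreed within counting noise (chi-square per gene of at least 21.2). Nothing says whether replicates are separate pools of embryos beyond the study calling them biological, and p-values measure the spread between these samples.

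Groups came from the sample titles. The whole table was tested in R 4.3.3 with DESeq2 1.42.0, the tool of the study's methods, and group alone as term, and p-values were adjusted by Benjamini-Hochberg over all genes given one. A gene was said to rise or fall at an adjusted p under 0.05. The study's second threshold was an absolute log2 fold change over 1.5. The genes and lists were chosen with earlier results of these data known. Every gene found is accounted for; those with the 2 smallest p in each role, and the 2 smallest of each comparison list, were to be named with full values, and others were described after their values were seen. Comparison lists held 141 genes, of which 123 were found by name, identifier or synonym in a RefSeq table of assembly GRCg7b, and were described by counts and medians without a set test. Alternatives were edgeR 4.0.16 (quasi-likelihood), limma 3.58.1 (voom), size factors from TMM or from total counts, removal of genes under 10 counts in more than 3 samples, a fold change threshold of 1, replicate number as a block and each sample left out in turn. Same-numbered Control and Sox8OE samples deviated together from their group means, at r of 0.166, 0.141 and 0.113 for replicates 1, 2 and 3. These r were taken across 14862 genes, and differently numbered samples had r of -0.158 to 0.02. Deviations cancel out within each group, so these correlations depend on one another. The pairing comes from these correlations and from no label. Promoter and protein sequences were not analysed here.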

Additional observations from a re-analysis of the deposited data

How the results depend on the processing

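The counts of ER genes with an adjusted p under 0.05, 0 higher and 0 lower, were also 0 with edgeR, limma voom, TMM factors and the filter on low counts, and total counts gave 1 higher. With the replicate block they were 1 higher and 10 lower, and 1 lower passed both thresholds. Leaving out 1 sample gave 0 to 7 higher and 0 to 23 lower at an adjusted p under 0.05, and 0 to 10 lower past both thresholds, each maximum without Sox8OE replicate 1. In none of these fits did an ER gene called by DESeq2 have the opposite sign to the fit with all samples. With total counts as size factors the median log2 fold change of all genes tested rose from 0.08 to 0.29 and that of the ER genes from -0.45 to -0.31, so 3 signs turned (HSP90B1, PDIA4 and ERP29). Over all genes, 532 higher and 154 lower passed both thresholds. These numbers were 33 and 8 with edgeR, 27 and 6 with limma voom, 926 higher with total counts and 519 lower with the block. Leaving out 1 sample gave 165 to 1557 higher and 51 to 1493 lower. The cause of these differences was not tested. Without ribosomal protein and mitochondrial genes the share of the ER genes was 1.265%, 1.136% and 1.193% in Control, above the 1.110%, 0.983% and 1.062% of all counts because the denominator is smaller. With 3 samples a group and 1 Sox8OE sample apart from the rest, a missed threshold does not show equal levels.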

Other observations

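Chaperones outside the ER were examined in a list of 18 cytosolic and mitochondrial heat shock genes. None passed an adjusted p under 0.05 with DESeq2 or edgeR, and the median log2 fold change was -0.34 (-0.44 without Sox8OE replicate 1). The sample medians, as log2 ratios to the Control mean, were -0.05, -0.61 and -0.45 in Sox8OE replicates 1, 2 and 3. For the 10 ER chaperones they were 0.16, -0.57 and -0.59, so Sox8OE replicates 2 and 3 had the lower medians in both lists. HSF2 (ENSGALG00000038420) had 13859, 7648 and 11831 normalised counts in Control and 8520.5, 2079 and 2284 in Sox8OE. HSF2, a heat shock factor, had the smallest p, with Sox8OE replicates 2 and 3 the lowest samples and a log2 fold change of -1.37 ± 0.56 (SE, DESeq2 adjusted p 0.13); without Sox8OE replicate 1 it was -2.36 (DESeq2 adjusted p 2.7e-16), and with the block the DESeq2 adjusted p was 2.0e-04. In Control DNAJA1 (ENSGALG00000023066) had normalised counts of 6999.5, 7970.3 and 6532, and in Sox8OE of 9066, 11466 and 13216. DNAJA1, a cytosolic Hsp40, had every Sox8OE sample above every Control sample and a log2 fold change of 0.65 ± 0.30 (SE, DESeq2 adjusted p 0.19); without Sox8OE replicate 1 it was 0.77 (DESeq2 adjusted p 8.9e-04), and with the block the DESeq2 adjusted p was 0.12.

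Genes of COPII transport, which carries folded cargo out of the ER, had 15 members found with a median log2 fold change of -0.27, and 0 passed an adjusted p under 0.05 with DESeq2 or edgeR. Sample by sample, the medians were 0.07, -0.32 and -0.26 in Sox8OE replicates 1, 2 and 3. SEC16A (ENSGALG00000002364) had 507, 634 and 591 normalised counts in Control and 668, 1411 and 1371 in Sox8OE. SEC16A, a scaffold of ER exit sites, had every Sox8OE sample above Control and a log2 fold change of 0.99 ± 0.40 (SE, DESeq2 adjusted p 0.12); without Sox8OE replicate 1 it was 1.26 (DESeq2 adjusted p 6.3e-06), and with the block the DESeq2 adjusted p was 0.046. SAR1B, the GTPase that starts coat assembly, had 3436 ± 202 in Control and 1827 ± 1272 in Sox8OE (SD, n = 3 each) and a log2 fold change of -0.91 ± 0.50 (SE, DESeq2 adjusted p 0.26); without Sox8OE replicate 1 it was -1.62 (DESeq2 adjusted p 4.4e-07), and with the block the DESeq2 adjusted p was 0.02. Without Sox8OE replicate 1, 3 heat shock genes were called higher and 8 lower, and 2 COPII genes higher and 7 lower, where 17.8% of all genes were called higher and 21.6% lower. With the replicate block 0 and 4, and 1 and 3, were called, against 8.25% and 10.3%.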
